A study of Mus musculus with 9 samples.

Results

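The genes described here encode the membrane-bound cores of heparan sulfate proteoglycans and the enzymes that build and modify glycosaminoglycan chains. They were chosen by symbol: glypicans, syndecans, hyaluronan synthases, carbohydrate sulfotransferases, heparan sulfate sulfotransferases, exostosins, xylosyltransferases, extracellular sulfatases and a short list of chondroitin, dermatan and linkage enzymes. The rule found 56 genes among the 18193 that had a probe set with a single gene symbol. Gene expression had been measured in GFP-positive cells sorted from trypsin-dissociated forelimbs of Scx-GFP mouse embryos, in which the reporter follows the tendon gene Scx, at 3 embryonic stages named by days of gestation: E11.5, E12.5, E14.5. All 3 stages carried the reporter and none was treated. Each stage had 3 Affymetrix mouse arrays, named A, B and C, with no statement of separate litters or of how many embryos were pooled, so the p-values measure the spread between these samples, which may be technical.

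Proteoglycans consist of a core protein with 1 or more long sulfated sugar chains. Glypicans, held to the membrane by a lipid anchor, and syndecans, which span it, carry mainly heparan sulfate, a chain that binds FGF, Wnt, BMP and hedgehog ligands according to its sulfation. Chondroitin and dermatan sulfate decorate secreted matrix proteoglycans, those of collagen fibrils in tendon included, and hyaluronan is made without a core protein at the plasma membrane. The series allows each gene to be followed over the days in which limb tendons form.

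Signals were MAS5 intensities on a linear scale. Of the 56 genes, 43 had a signal above 90.6, the overall median, in 3 or more arrays and were tested together with all other genes that did. The other 13 were Gpc5, Has1, Has3, Ndst3, Ndst4, Hs3st2, Hs6st3, Chst3, Chst4, Chst7, Chst8, Chst9 and Chst13, whose chosen probe sets reached at most 138 in any array. Of these, Gpc5, Has1, Has3 and Hs3st2 passed 90.6 in 1 array each on those probe sets. A brighter probe set of Hs3st2, of the _x_at type that can bind other transcripts and was therefore not chosen, averaged 197 at E14.5 and 93.2 at E11.5 (log2 change 1.08 ± 0.19, adjusted p = 0.0033 in a limma fit over all probe sets). Hs6st3 lay below the floor of 22.7 in all 9 arrays. A signal belongs to its own probe set, so levels are compared between stages of a gene and not between genes.

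The labelled cell type was checked with fixed marker lists. All 9 tendon markers were tested, and the mean log2 signal of the list lay between 9.20 and 9.41 at E11.5, between 10.01 and 10.60 at E12.5 and between 12.33 and 12.68 at E14.5. The 13 cartilage markers had means between 7.39 and 8.03 at E11.5, between 9.11 and 9.39 at E12.5, and of 12.05, 9.48 and 8.18 in the E14.5 arrays A, B and C, so that 1 E14.5 array stood apart. The 12 muscle markers lay between 7.69 and 8.23, between 8.12 and 8.86 and between 8.71 and 8.94 at the 3 stages in that order, and the 8 endothelial markers between 5.41 and 6.20, between 5.78 and 6.32 and between 6.73 and 6.88. Pecam1 and Tie1 stayed at or under 90.6 in all 9 arrays, as did Ptprc, Cd52, Alas2 and Hba-a1 among 7 blood markers, Krt14 and Trp63 among 8 epithelial markers and Foxd3 among 5 nerve markers. The tested markers were also compared between E14.5 and E11.5 at an adjusted p under 0.05. Of 9 tendon markers 8 rose and 1 fell, of 12 cartilage markers 7 rose, and of 12 muscle markers 6 rose and 1 fell. Of 5 endothelial markers 4 rose, and of 5 epithelial markers 3 rose and 1 fell. Of 3 nerve markers 1 rose and 1 fell, and of 2 blood markers 1 fell. What part these cells had in the results below was not tested. In a bulk sample, fewer cells of a type and less RNA per cell cannot be told apart.

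Proteoglycan and glycosaminoglycan genes were mostly higher at E14.5 than at E11.5. In this comparison 23 of the 43 tested genes rose and 2, Gpc2 and Hs3st3b1, fell at an adjusted p under 0.05. Over all 11575 genes tested, 40.5% were called, 22.9% as higher and 17.7% as lower. The median log2 change was 0.59 for the 43 genes and 0.00 for all genes tested. Of the 43, 16 changed by more than 1 on the log2 scale, against 17.3% of all genes tested. Chst12, Chst5, Chsy3 and Hs3st4 had no E11.5 array above 90.6 and would not have passed without their E14.5 arrays, so their differences were in part fixed by that filter and add to the count of genes that rose. The same held for Hs3st6, which was not called. The calls of 14 genes held under all 17 alternative settings: Gpc4, Sdc2, Sdc4, Has2, Hs3st1, Hs6st1, Sulf1, Chsy3, Chpf, Chst14, Chst15, Chst1, Chst2 and Chst5. The other 11 were lost under at least 1 setting, with the settings named or counted for each gene.

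**Figure D1:**
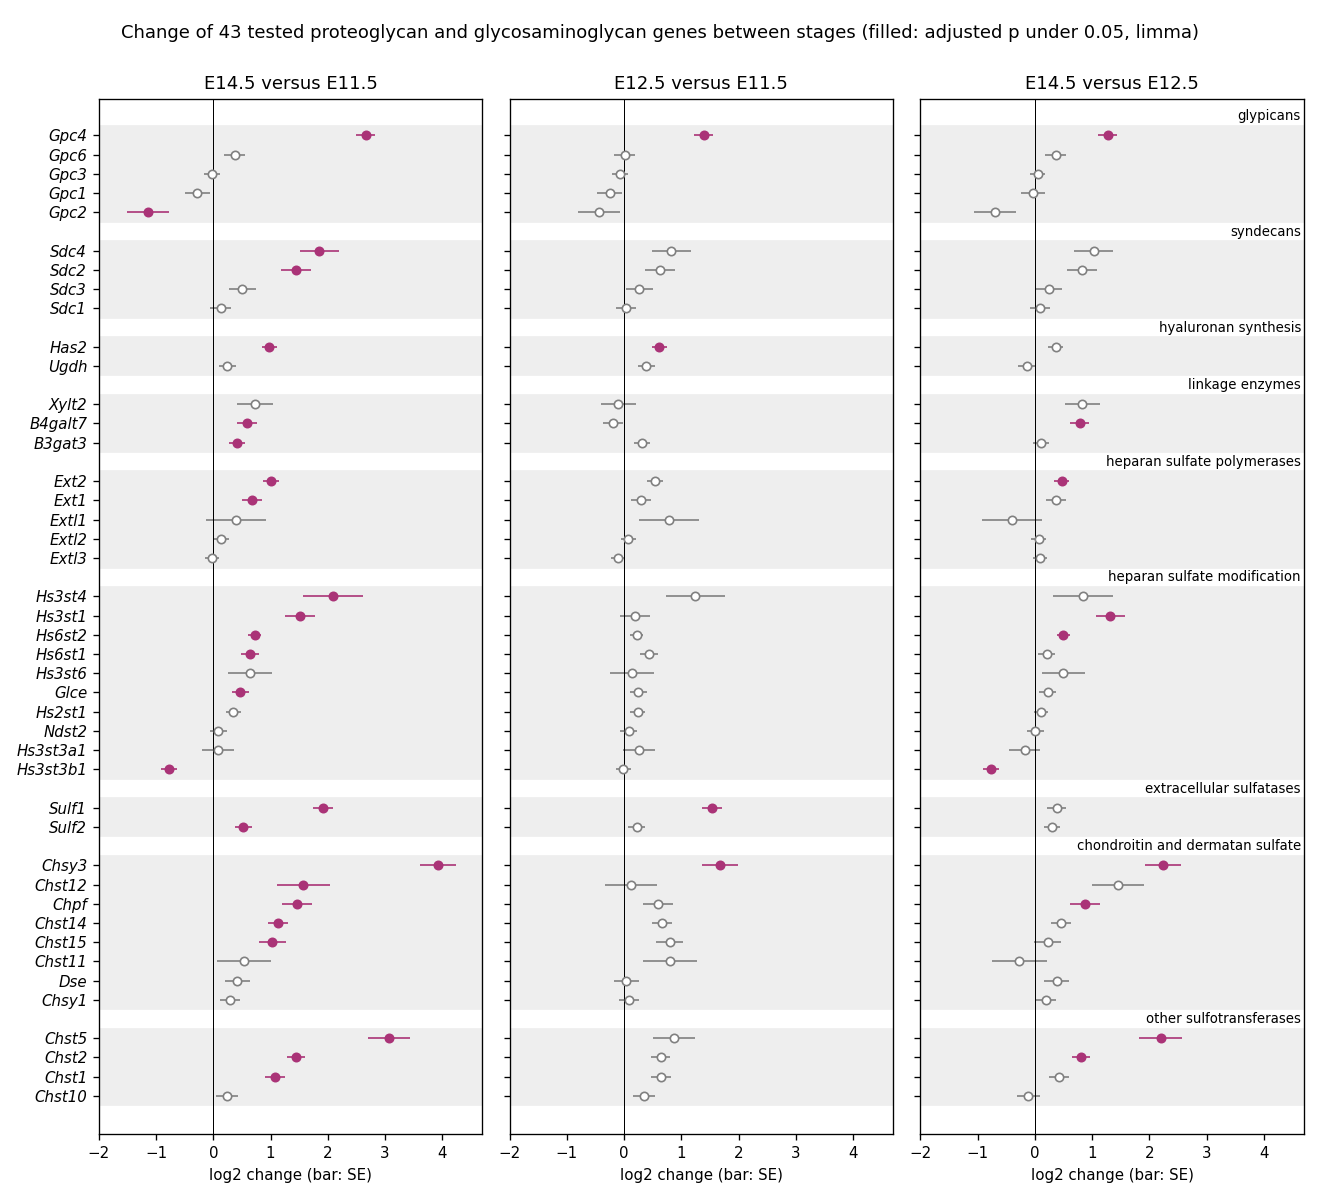
Log2 change (x axis) with its standard error (bar) for the 43 tested genes, grouped by role and ordered by the change between E14.5 and E11.5, in the 3 comparisons of stages from limma. Filled points passed an adjusted p of 0.05: 25 genes between E14.5 and E11.5, 4 between E12.5 and E11.5 and 10 between E14.5 and E12.5.

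Among the glypicans, Gpc4 rose at each step. Its signal was 627, 565 and 583 in the E11.5 arrays A, B and C, 1447, 1527 and 1685 at E12.5, and 4820, 3092 and 3514 at E14.5. No array of a later stage overlapped with an earlier stage. The log2 change was 2.66 ± 0.17 (SE, adjusted p = 5.5e-06) between E14.5 and E11.5, 1.39 ± 0.17 (adjusted p = 0.0043) between E12.5 and E11.5 and 1.27 ± 0.17 (adjusted p = 0.0010) between E14.5 and E12.5. The other Gpc4 probe set gave 2.32 between E14.5 and E11.5.

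Gpc2, known as cerebroglycan and best known from developing neurons, went the other way. It measured 1266, 1730 and 1254 at E11.5, 798, 1204 and 1138 at E12.5, and 327, 844 and 935 at E14.5. The E14.5 arrays all lay below the E11.5 arrays, with array A of E14.5 far below the other 2 of its stage. The log2 change between E14.5 and E11.5 was -1.14 ± 0.37 (adjusted p = 0.033). It was -0.66 without E14.5 A, still called (adjusted p = 0.048), and missed the threshold without array A (0.058), B (0.104) or C (0.054) of E11.5 and with no filter (0.098).

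The remaining tested glypicans were not called in any comparison. Gpc3, a glypican whose loss in humans causes an overgrowth syndrome, averaged 11165 ± 1235 at E14.5 and 11293 ± 658 at E11.5 (SD, n = 3 each), a log2 change of -0.02 ± 0.14 (SE). Gpc1 averaged 2166 ± 589 at E14.5 and 2605 ± 534 at E11.5. For Gpc6 the means were 2753 ± 186 at E14.5 and 2158 ± 475 at E11.5, with all E14.5 arrays above the E11.5 arrays (log2 change 0.37 ± 0.18, adjusted p = 0.125). Its 5 probe sets gave changes between -1.07 and 0.74, none of them called.

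Promoter sequence is shown for the glypicans that moved in opposite directions and for Hs3st3b1, the enzyme gene that fell. The windows are the 250 bases before the start that the promoter table from RefSeq (GRCm38.p6) gives, read 5′ to 3′ on the gene's strand, at chrX:52164924-52165173 for Gpc4, chr5:138279938-138280187 for Gpc2 and chr11:63922285-63922534 for Hs3st3b1, all on the minus strand. Capitals mark matches to CANNTG, the E-box bound by basic helix-loop-helix factors, a class to which the Scx protein belongs. The motif reads the same on both strands.
Gpc4: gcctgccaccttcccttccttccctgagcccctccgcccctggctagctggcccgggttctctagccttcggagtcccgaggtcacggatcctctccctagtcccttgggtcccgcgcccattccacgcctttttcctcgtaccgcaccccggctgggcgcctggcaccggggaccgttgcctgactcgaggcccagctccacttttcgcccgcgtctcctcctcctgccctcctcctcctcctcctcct
Gpc2: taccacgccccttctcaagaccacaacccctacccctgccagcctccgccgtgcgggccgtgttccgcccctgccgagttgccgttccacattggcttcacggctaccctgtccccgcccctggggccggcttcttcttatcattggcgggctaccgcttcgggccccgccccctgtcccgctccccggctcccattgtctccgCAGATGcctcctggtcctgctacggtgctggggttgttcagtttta
Hs3st3b1: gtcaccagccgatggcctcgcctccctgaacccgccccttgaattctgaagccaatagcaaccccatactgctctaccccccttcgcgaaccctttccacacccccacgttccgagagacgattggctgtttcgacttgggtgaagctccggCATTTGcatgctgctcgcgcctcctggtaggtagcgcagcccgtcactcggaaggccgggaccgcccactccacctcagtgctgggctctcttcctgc
The Gpc4 window held no match and the other 2 held 1 each. The last 89 bases of the Gpc2 window, its match among them, lie inside the gene as RefSeq annotates its full extent. RefSeq promoters were matched by symbol for 44 of the 56 genes, 49 windows in all, and 24 of these windows held CANNTG, or 49.0%, against 66.2% of 32851 windows of the same length. The GC box, GGGCGG or CCGCCC on the strand shown, was in 33 of the 49, or 67.3%, against 32.7% of all windows. A match is a description of the letters only.

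Syndecans 2 and 4 rose. Sdc4, a co-receptor of focal adhesions, had signals of 462, 277 and 306 at E11.5, 665, 544 and 603 at E12.5, and 2216, 894 and 934 at E14.5. Stages did not overlap, and E14.5 A was far above the other arrays of its stage. The log2 change between E14.5 and E11.5 was 1.85 ± 0.34 (adjusted p = 0.0021), and 1.43 without E14.5 A. Sdc2, the syndecan typical of mesenchymal cells, measured 983, 704 and 1029 at E11.5, 1653, 1176 and 1365 at E12.5, and 3573, 2303 and 1765 at E14.5, again with E14.5 A highest (1.45 ± 0.26, adjusted p = 0.0022). The other 2 tested probe sets of Sdc2 gave 1.55 and 1.46.

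Sdc1, the syndecan known from epithelia and plasma cells, averaged 3916 ± 975 at E14.5 and 3518 ± 287 at E11.5 and was not called (log2 change 0.13 ± 0.18). Sdc3 averaged 1471 ± 539 at E14.5 and 996 ± 113 at E11.5 (0.51 ± 0.23, adjusted p = 0.109), and its call appeared with the mean of its probe sets (0.59, adjusted p = 0.018). The other tested Sdc3 probe set gave 0.92, and 1 of the 2 was called as higher in the limma fit over all probe sets. In the later interval, between E14.5 and E12.5, Sdc4 changed by 1.03 ± 0.34 (adjusted p = 0.054) and Sdc2 by 0.82 ± 0.26 (adjusted p = 0.053). With the array letters as a replicate block both passed (adjusted p = 0.012 for Sdc4 and 0.025 for Sdc2).

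**Figure D2:**
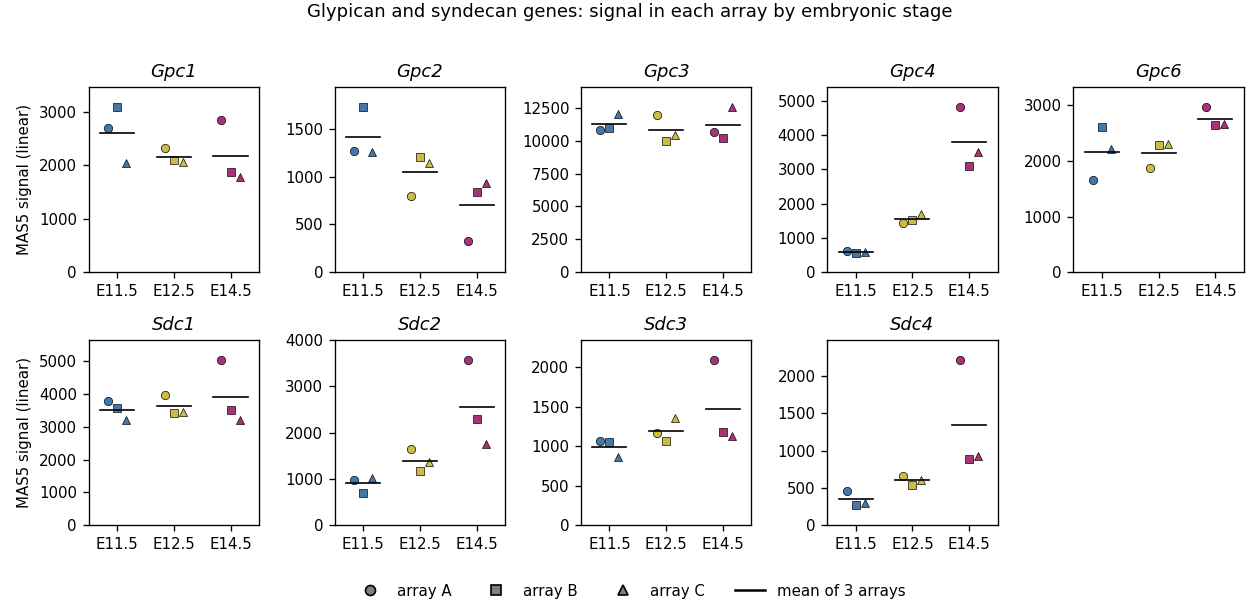
MAS5 signal on a linear axis starting at 0 for 5 glypican and 4 syndecan genes in each of the 9 arrays, by stage, with symbols for arrays A, B and C and a line at the mean of 3 arrays. Gpc4 steps up at each stage and Gpc3 stays between 9945 and 12566. All 4 syndecans are highest in E14.5 A, as are Gpc4 and Gpc6.

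Hyaluronan synthesis was represented by Has2, the main hyaluronan synthase of the embryo, which rose early. Its signal was 654, 759 and 768 at E11.5, 1049, 1055 and 1242 at E12.5, and 1452, 1317 and 1534 at E14.5, and the 3 stages did not overlap. The log2 change was 0.98 ± 0.13 (adjusted p = 4.7e-04) between E14.5 and E11.5 and 0.62 ± 0.13 (adjusted p = 0.041) between E12.5 and E11.5. The early call was fragile: it was lost in 13 of the 17 alternatives (highest adjusted p 0.169, without E12.5 C), 8 of which left out 1 array, though the change stayed between 0.54 and 0.66. Ugdh, which makes the UDP-glucuronate used for all these chains but keratan sulfate, averaged 3967 ± 505 at E14.5 and 3328 ± 116 at E11.5 and was not called (0.25 ± 0.15). Has1 and Has3 were not tested. Has1 had signals of 134, 54.3 and 21.8 in the E14.5 arrays and no more than 39.1 in any other.

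The linkage enzymes build the short sugar bridge from which heparan and chondroitin chains start. B4galt7, which adds its first galactose, had signals of 142, 114 and 166 at E11.5, 114, 132 and 119 at E12.5, and 201, 239 and 189 at E14.5. The E14.5 arrays lay above both earlier stages, which overlapped. The log2 change was 0.59 ± 0.17 (adjusted p = 0.020) against E11.5 and 0.78 ± 0.17 (adjusted p = 0.010) against E12.5. The first was lost with quantile normalization (0.145), without E11.5 B (0.063) or E14.5 B (0.068) and without the 3 letter A arrays (0.085), where the second was lost too (0.091). B3gat3, the glucuronosyltransferase that completes the bridge, rose by 0.41 ± 0.14 (adjusted p = 0.039). This call was lost in 11 of 17 alternatives, 7 of them with 1 array left out (highest adjusted p among these 0.119, without E11.5 B), and its change was 0.21 with the mean of probe sets. Xylt2, which adds the initial xylose, changed by 0.73 ± 0.31 (adjusted p = 0.088), and was called without E14.5 C (1.01, adjusted p = 0.030).

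Ext1 and Ext2 encode the partners of the heparan sulfate polymerase, and both rose. Ext2 had signals of 647, 678 and 663 at E11.5, 896, 925 and 1077 at E12.5, and 1440, 1161 and 1413 at E14.5, with no overlap between stages. Its log2 change was 1.01 ± 0.14 (adjusted p = 4.3e-04) between E14.5 and E11.5. Ext1 averaged 2850 ± 625 at E14.5 and 1765 ± 202 at E11.5 (0.68 ± 0.17, adjusted p = 0.012). Each call was lost with the mean of probe sets (0.32, adjusted p = 0.332 for Ext2; 0.26, adjusted p = 0.594 for Ext1), where only the brightest probe set of each gene had passed the filter on signal.

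The smaller step of Ext2 between E14.5 and E12.5 (0.47 ± 0.14, adjusted p = 0.036) was lost when 1 array was left out, either A or C of E11.5, A or B of E12.5, or A or C of E14.5 (highest adjusted p 0.118), when the 3 letter A arrays were dropped (0.238), and also when probe sets were averaged, where it was -0.031. Extl2 and Extl3, relatives that act at chain initiation, changed by 0.14 ± 0.13 and -0.02 ± 0.13 between E14.5 and E11.5 and were not called. Another Extl2 probe set gave 0.46 and was called in the limma fit over all probe sets (adjusted p = 0.018).

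Genes that modify heparan sulfate moved in both directions, 5 up and 1 down of 10 tested, where 22.9% of all genes tested rose and 17.7% fell. Among the 5 was Hs3st4, which would not have passed the filter without its E14.5 arrays. The same held for Hs3st6, which was not called. Hs3st1, which makes the rare sulfated site that antithrombin binds, had signals of 153, 117 and 148 at E11.5, 160, 199 and 125 at E12.5, and 267, 475 and 487 at E14.5. E11.5 and E12.5 overlapped and E14.5 lay above both. The log2 change was 1.52 ± 0.26 (adjusted p = 0.0016) against E11.5 and 1.32 ± 0.26 (adjusted p = 0.0071) against E12.5.

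Hs3st3b1, another sulfotransferase of the same family, fell to 847, 727 and 701 at E14.5, against 1191, 1247 and 1455 at E11.5 and 1376, 1217 and 1262 at E12.5. The earlier stages overlapped and every E14.5 array was lower than all of them (log2 change against E11.5 -0.77 ± 0.14, adjusted p = 0.0019, and against E12.5 -0.76 ± 0.14, adjusted p = 0.0045). The call rests on its brightest probe set: the other 2 that passed the filter gave 0.17 and -0.42, not called, and with the mean of probe sets the change was -0.33 (adjusted p = 0.282) against E11.5 and -0.39 (adjusted p = 0.256) against E12.5. Hs3st3a1, its close relative, changed by 0.09 ± 0.28 against E11.5.

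Hs6st2, which adds sulfate at the glucosamine carbon later acted on by the extracellular sulfatases, measured 2418, 2268 and 2532 at E11.5, 2833, 2772 and 2823 at E12.5, and 3773, 3943 and 4192 at E14.5, with no overlap between stages. It rose by 0.72 ± 0.11 (adjusted p = 0.0010) between E14.5 and E11.5 and by 0.50 ± 0.11 (adjusted p = 0.014) between E14.5 and E12.5. With the mean of probe sets neither was called (adjusted p = 0.289 and 0.351). The other Hs6st2 probe set that passed the filter gave 0.89 and 0.43. In each comparison 1 of the 2 was called in the limma fit over all probe sets. The later step was also lost without the 3 letter A arrays (0.076). Hs6st1, which has the same activity, averaged 400 ± 28.5 at E14.5 and 255 ± 10.7 at E11.5 (0.64 ± 0.15, adjusted p = 0.0087).

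Glce, the epimerase that turns glucuronate into iduronate, rose by 0.47 ± 0.15 (adjusted p = 0.027), a call lost with median centring (0.060), without E11.5 A (0.068), E11.5 B (0.080), E14.5 B (0.066) or E14.5 C (0.079) and without the 3 letter A arrays (0.051). Its change was 0.74 with the mean of probe sets. Hs3st4, measured at 45.1, 136 and 199 at E14.5 and 6.63, 30.4 and 7.92 at E11.5, was at or near the floor at E11.5. Its log2 change of 2.09 ± 0.52 (adjusted p = 0.011) therefore depends on that floor, and with the higher floor was 0.57 (adjusted p = 0.070). Ndst2, a deacetylase and sulfotransferase that begins chain modification, had means of 652 ± 85.0 at E14.5 and 611 ± 64.1 at E11.5 and was not called, nor were Hs2st1 (0.35 ± 0.13, adjusted p = 0.056) and Hs3st6 (0.64 ± 0.38). Hs2st1, which sulfates the iduronate, was called with no filter (0.032), quantile normalization (0.037) and the array letters as a replicate block (0.0425).

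The extracellular sulfatases remove sulfate groups from finished heparan sulfate at the cell surface, which alters the binding of growth factors. Sulf1 had signals of 1586, 1352 and 1713 at E11.5, 3617, 4572 and 5418 at E12.5, and 6174, 5536 and 5797 at E14.5. The 3 stages did not overlap. The log2 change was 1.92 ± 0.17 (adjusted p = 3.4e-05) between E14.5 and E11.5, 1.54 ± 0.17 (adjusted p = 0.0031) between E12.5 and E11.5 and 0.38 ± 0.17 (adjusted p = 0.136) between E14.5 and E12.5. Another Sulf1 probe set gave 1.67 for the first of these, and with the mean of all its probe sets, a dim one included, it was 1.20. Sulf2 measured 4862, 4998 and 4895 at E11.5, 4984, 5735 and 6572 at E12.5, and 8029, 6512 and 6771 at E14.5, where the E12.5 arrays overlapped with both other stages. It rose by 0.52 ± 0.14 between E14.5 and E11.5 (adjusted p = 0.017), a call lost without E14.5 A (0.050), without the 3 letter A arrays (0.084) and with the mean of probe sets (0.21, adjusted p = 0.333). Of the 3 tested Sulf2 probe sets only 1 was called, and the others gave 0.34 and -0.23.

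**Figure D3:**
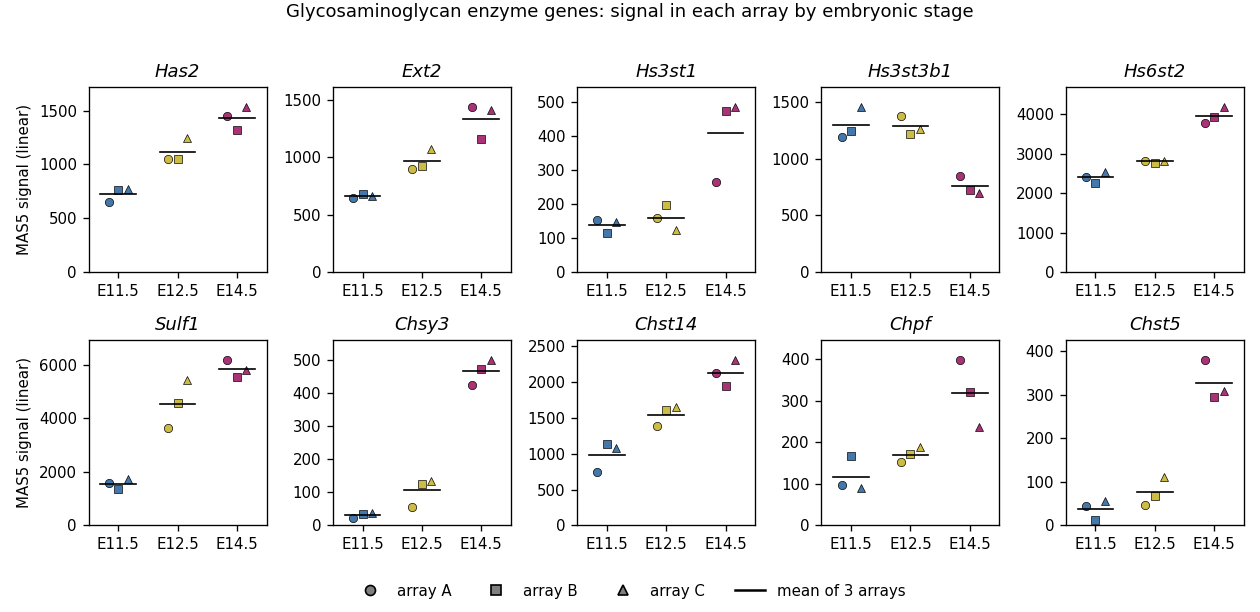
MAS5 signal on a linear axis starting at 0 for 10 enzyme genes in each of the 9 arrays, by stage, with symbols for arrays A, B and C and a line at the mean of 3 arrays. Sulf1 and Has2 are already higher at E12.5 than at E11.5, Hs3st1 and Chst5 are highest at E14.5, and the E14.5 arrays of Hs3st3b1 lie between 701 and 847, below all others.

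Genes for chondroitin and dermatan sulfate rose in 5 of 8 cases and none fell, beside 22.9% up and 17.7% down over all genes tested. Among the 5 were Chsy3 and Chst12, which passed the filter only through their E14.5 arrays, so their rise was in part fixed by it. Chsy3, a chondroitin synthase on chromosome 18, had a larger change than any other of the 43 genes at the settings used, though not with the higher floor, where Gpc4 led (2.66), or when probe sets were averaged, where Chst5 led (3.07). It measured 22.9, 34.2 and 36.9 at E11.5, 56.6, 125 and 135 at E12.5, and 426, 471 and 500 at E14.5. The stages did not overlap, and the E11.5 signals lay just above the floor. The log2 change between E14.5 and E11.5 was 3.92 ± 0.32 (adjusted p = 1.9e-05), 2.36 with the higher floor and 2.47 when probe sets were averaged. Between E14.5 and E12.5 it was 2.24 ± 0.32 (adjusted p = 0.0013). Between E12.5 and E11.5 it was 1.68 ± 0.32 (adjusted p = 0.023). This early call was lost with the higher floor (0.35, adjusted p = 0.351), no filter (0.102), the mean of probe sets (0.95, adjusted p = 0.170) and without E11.5 A (0.076), E11.5 B (0.060), E12.5 B (0.107) or E12.5 C (0.0955).

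Chpf, the chondroitin polymerizing factor that works with the synthases, measured 97.0, 166 and 88.7 at E11.5, 152, 171 and 187 at E12.5, and 398, 321 and 236 at E14.5. The E14.5 arrays lay above the others, and the earlier stages overlapped. It changed by 1.47 ± 0.26 (adjusted p = 0.0020) against E11.5 and 0.88 ± 0.26 (adjusted p = 0.040) against E12.5. The second call was lost in 8 of 17 alternatives, among them those without any 1 array of E12.5 and those without A or B of E14.5 (at most 0.118 in these).

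Chst14 and Dse encode the sulfotransferase and an epimerase of dermatan sulfate, the chain type carried by decorin. Chst14 had signals of 750, 1136 and 1079 at E11.5, 1381, 1606 and 1653 at E12.5, and 2128, 1953 and 2310 at E14.5, without overlap (log2 change 1.13 ± 0.18 between E14.5 and E11.5, adjusted p = 9.8e-04). Dse averaged 1670 ± 334 at E14.5 and 1231 ± 102 at E11.5, with overlapping arrays (0.42 ± 0.21, adjusted p = 0.145). Chst15, which adds a further sulfate to chondroitin sulfate that already carries 1, averaged 790 ± 135 at E14.5 and 392 ± 91.2 at E11.5 (1.03 ± 0.24, adjusted p = 0.0072).

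Chst12, a chondroitin sulfotransferase, measured 125, 91.0 and 102 at E14.5 and 58.5, 20.9 and 33.0 at E11.5 (1.57 ± 0.46, adjusted p = 0.022). The change was 0.21 with the higher floor (adjusted p = 0.245), and the call was also lost with no filter (0.078), quantile normalization (0.099), and when 1 array was left out, B of E11.5 (0.081), C of E11.5 (0.0565), A of E14.5 (0.066) or C of E14.5 (0.052). Between E14.5 and E12.5 it changed by 1.45 ± 0.46 (adjusted p = 0.050, just above the threshold) and passed with the replicate block (adjusted p = 0.0059). Chsy1, another chondroitin synthase, had means of 7180 ± 891 at E14.5 and 5942 ± 1194 at E11.5 and was not called (0.28 ± 0.18).

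The remaining sulfotransferases act on keratan sulfate or on other sugar chains. Chst5, whose family sulfates N-acetylglucosamine, had signals of 45.1, 11.8 and 56.9 at E11.5, 47.0, 68.3 and 111 at E12.5, and 380, 295 and 309 at E14.5. The 2 earlier stages overlapped, and all E14.5 arrays were well above them. The log2 change was 3.07 ± 0.37 (adjusted p = 2.3e-04) against E11.5, or 1.85 with the higher floor, and 2.20 ± 0.37 (adjusted p = 0.0035) against E12.5, a call lost without the 3 letter A arrays (adjusted p = 0.052).

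Chst2, an N-acetylglucosamine sulfotransferase, measured 148, 168 and 136 at E11.5, 240, 207 and 257 at E12.5, and 494, 379 and 364 at E14.5, with no overlap between stages. It rose by 1.44 ± 0.16 (adjusted p = 1.4e-04) between E14.5 and E11.5, or by 0.92 with the mean of probe sets, and by 0.81 ± 0.16 (adjusted p = 0.0078) between E14.5 and E12.5. The second call was lost with the mean of probe sets (0.44, adjusted p = 0.126) and without the 3 letter A arrays (0.069). Chst1, which sulfates galactose of keratan sulfate, averaged 483 ± 103 at E14.5 and 227 ± 19.5 at E11.5 (1.07 ± 0.18, adjusted p = 0.0013). Chst10 was not called (0.24 ± 0.20).

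The 2 intervals were also compared, with the limit that both use the E12.5 arrays. Between E12.5 and E11.5, 4 of the 43 genes rose, Gpc4, Sulf1, Chsy3 and Has2, and none fell, where 3.55% of all genes tested were called, 3.11% as higher and 0.441% as lower. Between E14.5 and E12.5, 9 rose and 1 fell, where 22.0% of all genes tested were called, 12.6% as higher and 9.32% as lower. The share of the 43 called was thus 9.30% in the earlier and 23.3% in the later interval. Gpc4 and Chsy3 were called in both. Those called as higher in the later interval, besides these 2, were B4galt7, Chpf, Chst2, Chst5, Ext2, Hs3st1 and Hs6st2, and Hs3st3b1 was the one called as lower. In neither interval was any of 31 genes called, Sdc2, Sdc4 and Chst14 among them, which passed between E14.5 and E11.5. With the array letters as a replicate block, Sdc2, Sdc4 and Chst12 were called as higher in the later interval too, which then counted 12 up and 1 down, while the earlier one stayed at 4 up and 0 down. Counts over all genes tested also grew with the block. They went from 1463 up and 1079 down to 1717 and 1374 in the later interval, and from 360 and 51 to 454 and 73 in the earlier. Whether a gene's change differed between the intervals was not tested.

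At E14.5, array A differed from B and C for several of these genes, and its cartilage markers were high. The mean log2 signal of the 13 cartilage markers was 3.22 higher in A than in the mean of B and C. Of the 43 genes, 6 differed by more than 1 on the log2 scale between A and the mean of B and C, where 525 (4.54%) of all genes tested did. Extl1, a relative of the exostosins, measured 305, 80.7 and 52.0 in A, B and C at E14.5. It measured 95.7, 70.4 and 83.3 at E11.5 and 161, 159 and 113 at E12.5. Chst11, a chondroitin sulfotransferase needed for normal cartilage, measured 1660, 552 and 344 at E14.5. It measured 632, 390 and 419 at E11.5 and 834, 890 and 741 at E12.5. For both genes the E12.5 arrays lay above the E11.5 arrays. Neither was called between E14.5 and E11.5 or between E12.5 and E11.5. Without E14.5 A, the comparison of E14.5 with E12.5 called both as lower, Chst11 by -0.91 (adjusted p = 0.047) and Extl1 by -1.14 (adjusted p = 0.017) on the log2 scale.

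Sdc4 was likewise highest in E14.5 A, and Gpc2, Hs3st4 and Hs3st6 were lowest there among the E14.5 arrays. The part of cartilage cells in these differences was not tested. Without E14.5 A the count between E14.5 and E11.5 was 20 up and 2 down, and without the 3 letter A arrays 19 up and 2 down. Over all genes tested, 2372 rose and 1794 fell without E14.5 A, against 2646 and 2045 with all arrays. Gpc4 changed by 2.48 without E14.5 A, Sdc2 by 1.18, Sulf1 by 1.88, Hs3st1 by 1.80 and Chsy3 by 3.98, all still called.

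**Figure D4:**
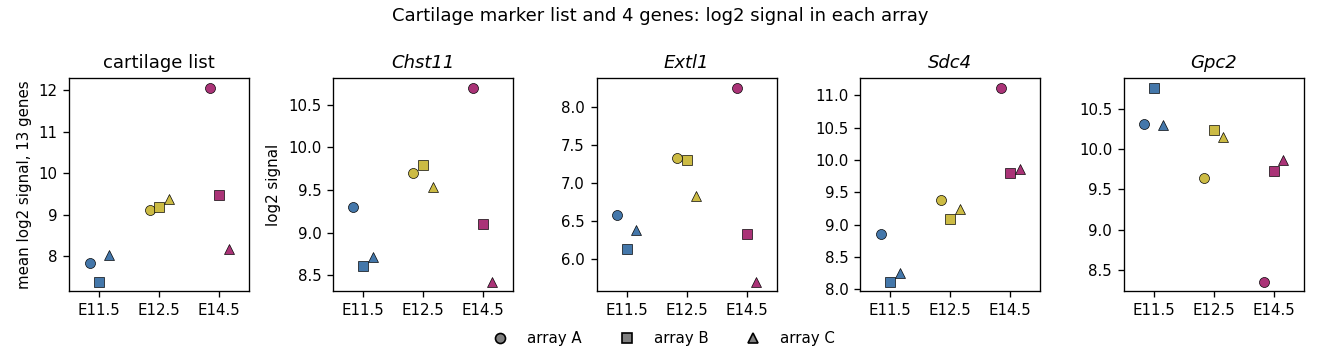
Mean log2 signal of the 13 cartilage markers and log2 signal of 4 genes in each array, by stage. E14.5 A stands above the other E14.5 arrays for the cartilage list, Chst11, Extl1 and Sdc4 and below them for Gpc2.

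Other genes of the same pathways were taken from 5 lists that share no member with the 56 genes, and compared between E14.5 and E11.5, where 22.9% of all genes tested rose and 17.7% fell. Of 19 tested core proteins of other proteoglycans 14 rose and 1 fell (median log2 change 1.81). The largest changes were those of Dcn (5.21 ± 0.25, the gene of decorin, a core protein of collagen fibrils), Cd44 (5.07 ± 0.28, a hyaluronan receptor that can carry chains, or 3.11 when probe sets were averaged) and Bgn (3.68 ± 0.31, which encodes biglycan). The gene that fell was Col18a1 (-0.92), named after its value was seen. Of 8 further linkage and chondroitin enzymes 4 rose and none fell (median 0.80). Csgalnact1, which starts chondroitin chains, had signals of 1638, 1425 and 1589 at E14.5 and 84.0, 82.9 and 109 at E11.5 (4.09 ± 0.21, adjusted p = 1.9e-06), and Dsel, a dermatan epimerase gene (1.19 ± 0.14), and Csgalnact2 (1.06 ± 0.16) followed.

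Of 16 precursor, sulfate donor and transporter genes 5 rose and none fell (median 0.41), beside 22.9% up and 17.7% down over all genes tested. The share called in either direction was smaller than the 40.5% of all genes tested. The count that rose was 3 with the mean of probe sets or without E11.5 B and 2 without the 3 letter A arrays. Papss2, which makes the sulfate donor PAPS, led with means of 2812 ± 1999 at E14.5 and 453 ± 138 at E11.5 (2.44 ± 0.43, adjusted p = 0.0019). Papss2 had already risen by 2.67 between E12.5 and E11.5 (adjusted p = 0.012), a call lost in 4 of 17 alternatives. Its E14.5 signals were 5069, 2099 and 1267 in arrays A, B and C, highest in the array with the highest cartilage markers, whose part was not tested. Pgm3 (0.72 ± 0.19) and Uap1 (0.62 ± 0.22), of UDP-N-acetylglucosamine synthesis, followed. Pgm3 was lost without E14.5 C (adjusted p = 0.051) and without the 3 letter A arrays (0.080), and Uap1 in 11 of 17 alternatives, the fits without A of E11.5 (0.136), B of E11.5, B of E12.5 or any 1 array of E14.5 among them. Of 10 genes of hyaluronan binding and breakdown 5 rose and 2 fell (median 0.43), among them Cd44, Hapln1, a cartilage link protein gene that is also 1 of the 13 cartilage markers (4.23 ± 0.86), and Itih5 (3.37 ± 0.20). The 2 that fell, Hmmr (-0.87) and Cemip2 (-0.68), were named after their values were seen, and only 1 was called without E11.5 A, without the 3 letter A arrays or with the mean of probe sets. Of 15 genes of lysosomal breakdown and heparanase 9 rose and none fell (median 0.90), led by the sulfatase genes Arsg (1.61 ± 0.34, and 0.73 with the higher floor), Arsb (1.56 ± 0.14) and Galns (1.53 ± 0.21, and 0.63 with the mean of probe sets).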

How the data were processed

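The deposited values are MAS5 signal intensities on a linear scale, which Expression Console 1.1 of Affymetrix produced according to the labels and per the submitters' processing notes; each array's trimmed mean, leaving out 2% at each end, was the same. Of 45101 probe sets, 34945 carried 1 gene symbol, 932 several and 9160 none, and 64 were controls. Where a gene (18193 in all) had several, the probe set brightest on average over the arrays on the log2 scale stood for it, and 1 whose ID ends in _x_at, a type that can bind other transcripts, was taken only where there was no other, even when brighter. Signals were raised to a floor of 22.7, the 25th percentile of all signals, and put on the log2 scale. Genes above 90.6 in at least 3 of 9 arrays were tested in 1 limma fit (limma 3.58.1, R 4.3.3) with 1 mean per stage, and p-values were adjusted by the Benjamini-Hochberg method over all 11575 genes tested. Means ± SD of signals are over 3 arrays, and changes are log2 ± SE from the fit. The number of arrays limits the precision. Changes of genes at the floor are compressed by it. Array medians ran from 68.7 to 118, and the 3′ to 5′ signal ratio of Gapdh from 0.717 to 0.831.

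All 56 genes were eligible to be named, and from the other lists the 3 called genes with the largest changes. The genes and lists were chosen with earlier results of these data known. On simulated data for E14.5 against E11.5 over 11575 genes, the fit recovered 63% of genes changed by 1 on the log2 scale and 92% of those changed by 2, with 11 false calls. These figures describe the simulated data. Whether they hold for the real comparison, where 40.5% of genes were called, was not tested. The array letters were checked as pairs by the correlation of deviations from stage means. Same letters (A, B, C) correlated at 0.520, 0.133 and 0.332 between E12.5 and E11.5 and at 0.310, 0.121 and 0.289 between E14.5 and E12.5. Between E14.5 and E11.5 they correlated at 0.313, -0.0052 and 0.238, near 0 for B only. So the replicate block is given beside results of the 2 comparisons with E12.5 where it changed a call. The 17 alternatives were a higher floor (the median signal), no floor, no filter, quantile normalization, median centring, the mean of a gene's probe sets, the array letters as a replicate block, each array left out in turn, and the 3 letter A arrays left out together, which stood apart on the second principal component (20.6 to 25.8, against -25.0 to -4.78).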

Additional observations from a re-analysis of the deposited data

How the results depend on the processing

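Of the 25 calls between E14.5 and E11.5, 14 held under all 17 alternatives, as did 2 of 4 between E12.5 and E11.5 (Gpc4, Sulf1) and 3 of 10 between E14.5 and E12.5; the cause of the losses was not tested. The only change of sign in a called gene was Ext2 between E14.5 and E12.5, -0.031 with the mean of probe sets. Between E14.5 and E11.5, 1 of the genes described here fell with no filter or the mean of probe sets, and 1260 of all genes fell without the 3 letter A arrays. Between E12.5 and E11.5, all genes that rose numbered 154 with no filter, 236 with median centring, 136 with the mean of probe sets and 225 without the letter A arrays. Those that fell numbered 28 with no filter, 33 with quantile normalization, 20 with the mean of probe sets and 24 without the letter A arrays. Of the genes described here, 2 rose with no filter or the mean of probe sets. Between E14.5 and E12.5, 0 fell with the mean of probe sets, where the main test called 1. Without the letter A arrays 785 of all genes rose, 299 fell, and 5 of the genes described here rose. Leaving out 1 array at a time gave, between E14.5 and E11.5, 2306 to 2576 genes up and 1536 to 1959 down (19 to 23 and 1 to 2 of those described here). Between E12.5 and E11.5 it gave 113 to 423 up and 12 to 63 down (2 to 6 and 0 of those described here), and between E14.5 and E12.5 1010 to 1502 up and 554 to 1097 down (7 to 11 and 1 to 3). With the replicate block, genes described here that rose or fell were 24 and 2 between E14.5 and E11.5, where Hs2st1 was gained (0.35, adjusted p = 0.0425), 4 and 0 between E12.5 and E11.5, and 12 and 1 between E14.5 and E12.5, where Sdc2, Sdc4 and Chst12 were gained. The block changed no other call of these 43 genes. Counts over all genes tested grew with it too. Between E14.5 and E11.5 they were 2895 up and 2367 down, against 2646 and 2045 in the main test. Between E12.5 and E11.5 they were 454 and 73, against 360 and 51. Between E14.5 and E12.5 they were 1717 and 1374, against 1463 and 1079. Signals near the floor limit Chst12, Chst5, Hs3st4 and Chsy3.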
